A study of Mus musculus with 10 samples.

Results

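Cardiac connexins are the gap junction genes of heart muscle and its vessels, and 5 of them were followed here: Gja5, Gja1, Gjc1, Gja4 and Gjd3. They were taken by symbol from a table of 23337 genes, in which all 5 were listed. RNA was sequenced from the left atrium of adult mice, in 6 libraries labelled Tbx5 knockout (3 female, 3 male) and 4 labelled control (2 female, 2 male), each from its own labelled animal. Knockout animals are labelled Tbx5-/-, and tamoxifen-inducible Cre recombinase driven from the ubiquitous R26 promoter removed exon 3 of Tbx5, so the deletion was not restricted to heart muscle. Tamoxifen was given at 0.167 mg per day for 3 days, and the animals were killed 1 week later. Control animals are labelled wild type (Tbx5 +/+), and the labels do not say whether they carried Cre or received tamoxifen. All animals were a mixed C57B6 and 129 strain, aged 8 to 10 weeks in the sample labels and 6 to 8 weeks in the extraction protocol.

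Connexins assemble in groups into a channel through the cell membrane, and channels of neighbouring cells dock into gap junctions that carry current and small molecules between them. In atrial muscle most coupling is attributed to the proteins of Gja5 (Cx40) and Gja1 (Cx43). The protein of Gjc1 (Cx45) is best known from nodal tissue, that of Gja4 (Cx37) from arterial endothelium, and that of Gjd3 from the mouse atrioventricular node. Mouse work has long placed Gja5 among the genes that depend on the T-box factor Tbx5.

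The promoters of Gja5 and Gja1, the cardiac connexin genes that fell, are shown as the DNA around the transcription start in the RefSeq models. Each runs from 250 bases before to 50 after the start, on the plus strand of GRCm38.p6 (mm10), with bases that matched a searched motif in capitals. That of Gja5 lies at chr3:97032152-97032451 and that of Gja1 at chr10:56377050-56377349. The GENCODE model of Gja5 starts at 96904693, upstream of its window, and no window at that start was searched.
Gja5: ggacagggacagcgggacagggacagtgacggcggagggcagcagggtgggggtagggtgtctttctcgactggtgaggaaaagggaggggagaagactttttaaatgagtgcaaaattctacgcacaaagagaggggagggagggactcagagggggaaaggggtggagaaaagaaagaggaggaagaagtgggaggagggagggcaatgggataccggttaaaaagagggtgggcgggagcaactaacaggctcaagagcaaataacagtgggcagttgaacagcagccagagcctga
Gja1: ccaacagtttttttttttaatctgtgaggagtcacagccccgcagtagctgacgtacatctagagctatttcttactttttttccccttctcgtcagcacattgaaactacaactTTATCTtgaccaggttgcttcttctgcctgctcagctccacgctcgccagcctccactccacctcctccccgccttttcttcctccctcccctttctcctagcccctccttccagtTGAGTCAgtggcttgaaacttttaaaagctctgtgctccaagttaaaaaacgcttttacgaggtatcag
The T-box core AGGTGT, the NKX2-5 element TNAAGTG, the GATA site AGATAA, the AP-1 site TGACTCA and the TATA box TATAAA were searched on both strands. None of the 5 was found in the Gja5 window, nor in that of Gja4. In the Gja1 window, 1 match to AGATAA was found 135 to 130 bases before the start and 1 to TGACTCA 19 to 13 bases before it, both read on the minus strand and not overlapping. Of 32851 RefSeq promoters of this length, 13.7% held AGGTGT, 11.5% TNAAGTG, 11.2% AGATAA, 5.2% TGACTCA and 13.6% TATAAA. A match is a run of letters and not a shown binding site, and more distant elements were not searched. RefSeq promoters were at hand for 3 of the 5 genes.

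Libraries held 5789632 to 7355782 reads assigned to genes in knockouts and 5701670 to 7697556 in controls. The atrial markers Nppa and Sln were read in all 10 and lower in knockouts, at 47697 to 147827 and 5985 to 9599 normalized counts in knockouts and at 202850 to 226046 and 14320 to 20551 in controls. The ventricular marker Myl2 went the other way, at 31.1 to 148 in knockouts and 0 to 5.23 in controls, and none of these 3 genes overlapped between groups. A normalized count is the read count divided by a size factor of its library. Tbx5 itself was counted higher in knockouts, at 1952 ± 336 (SD, n = 6), against 939 ± 125 (SD, n = 4) in controls. A count over the whole gene does not measure the loss of 1 exon, so it does not check the labels, and each direction given here rests on them. Of 13191 genes that passed a filter on low counts, 42.6% differed between knockout and control at a Benjamini-Hochberg adjusted p below 0.05 (edgeR quasi-likelihood test), 20.8% higher and 21.8% lower. That is 2741 higher and 2881 lower genes, against 3942 and 2020 when libraries were scaled by their size alone, which kept the direction and call of the 4 tested connexin genes. In bulk tissue, fewer cells of a type and less RNA per cell cannot be told apart.

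Of the 5 connexin genes, 4 were tested and all 4 differed: Gja5 and Gja1 were lower in the knockout libraries, Gjc1 and Gja4 higher. In each of the 4 no knockout library overlapped a control library. That was so for 31.3% of all tested genes, with knockouts lower in 15% and higher in 16.3%. Gjd3 was too rarely read to be tested. The plot of connexin levels by library shows every value.

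**Figure D1:**
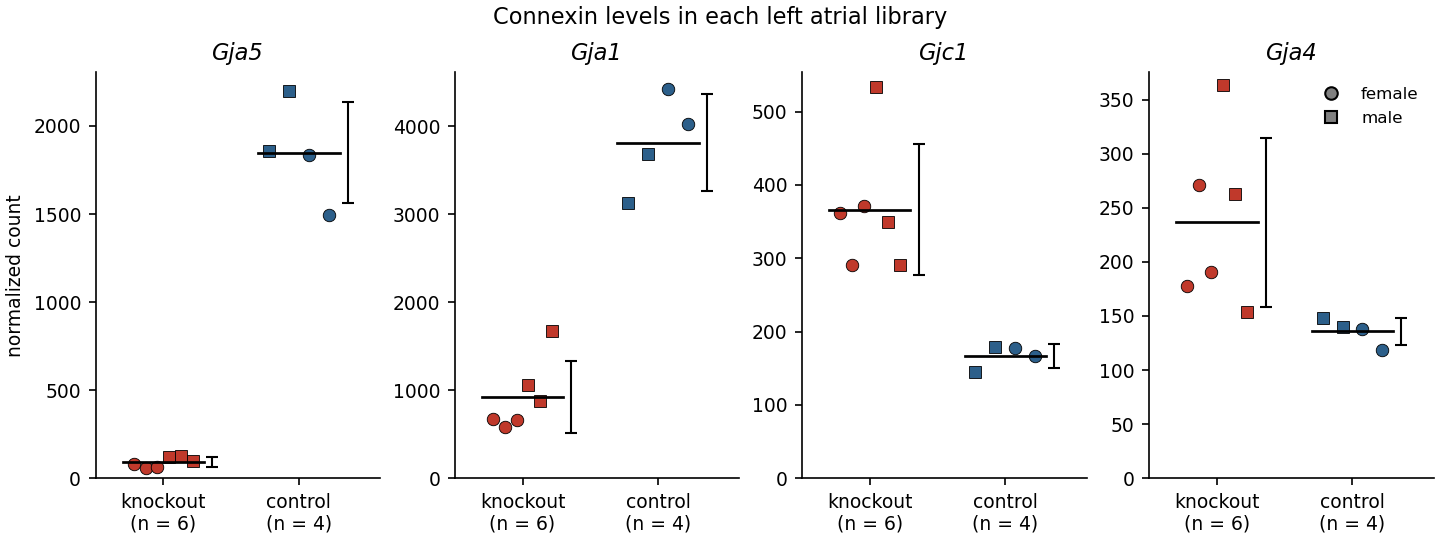
Normalized counts (vertical axes, each from 0) of Gja5, Gja1, Gjc1 and Gja4 in 6 knockout and 4 control left atrial libraries, with circles for females, squares for males, a line at the mean and a bar of 1 SD. Knockout libraries lie below all controls for Gja5 and Gja1 and above all controls for Gjc1 and Gja4.

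Gja5 (chromosome 3, 96904693 to 97077416, plus strand, GENCODE M21 on GRCm38) showed the deepest fall of the 4. Knockout females F1, F2 and F3 had 79.9, 54.9 and 65.5 normalized counts and knockout males M1, M2 and M3 had 122, 124 and 98.2. Control females F1 and F2 had 1837 and 1496, and control males M1 and M2 had 1860 and 2198. Even the highest knockout library was far below the lowest control. The log2 fold change was -4.37 ± 0.20 (SE; 95% interval -4.80 to -3.95; adjusted p = 1.19e-08, edgeR), which leaves 4.82% of the control level. Counted from the largest fall, this was position 10 among the 13191 tested genes. The GENCODE model of Gja5 shares 165 exon bases, 2.87% of its exon length, with Gpr89 on the other strand, and the strand setting of the counting is not known. Gpr89 had 196 ± 22.6 normalized counts in knockouts (SD, n = 6) and 170 ± 11.5 in controls (SD, n = 4), with overlapping groups.

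Gja1 (chromosome 10, 56377330 to 56402513, plus strand), the gene of the most widespread heart connexin, also fell, less steeply. Knockout females F1, F2 and F3 had 676, 581 and 666 normalized counts, and knockout males M1, M2 and M3 had 1060, 877 and 1673. Control females F1 and F2 had 4418 and 4027, and control males M1 and M2 had 3122 and 3682. Knockout M3 stood highest in its group, yet below every control. The log2 fold change was -2.07 ± 0.25 (SE; 95% interval -2.60 to -1.55; adjusted p = 2.13e-05, edgeR), or 23.8% of the control level. Without knockout M3 it was -2.33.

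The fall of Gja5 exceeded that of Gja1 inside the same libraries, a comparison that needs no scaling between libraries. For each Gja1 read there were 0.118, 0.0944 and 0.0983 Gja5 reads in knockout females F1 to F3 and 0.115, 0.141 and 0.0587 in knockout males M1 to M3. In controls the ratio was 0.416 and 0.371 in females F1 and F2 and 0.596 and 0.597 in males M1 and M2. The groups did not overlap, and the lowest ratio of all belonged to knockout M3, where Gja1 was highest among knockouts. The mean log2 ratio was -3.31 ± 0.44 in knockouts (SD, n = 6) and -1.05 ± 0.35 in controls (SD, n = 4), a difference of -2.26. A two-sided exact permutation test gave p = 0.00952, the smallest that 210 divisions of the 10 libraries can give.

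**Figure D2:**
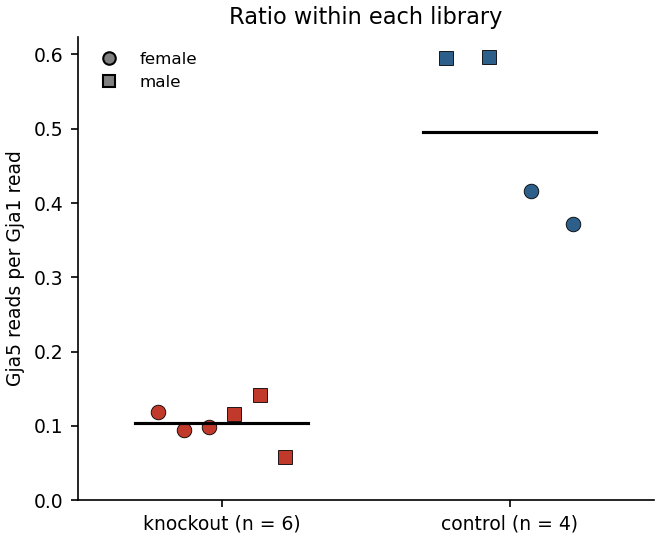
Gja5 reads per Gja1 read (vertical axis, from 0) in each of 6 knockout and 4 control libraries, with circles for females, squares for males and a line at the mean. Knockout libraries run from 0.0587 to 0.141 and control libraries from 0.371 to 0.597, without overlap.

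Gjc1 (chromosome 11, 102799579 to 102819700, minus strand), whose protein forms channels of low conductance in nodal tissue, moved the other way. Knockout females F1, F2 and F3 had 361, 290 and 371 normalized counts, and knockout males M1, M2 and M3 had 534, 350 and 291. Control females F1 and F2 had 178 and 166, and control males M1 and M2 had 144 and 179. Knockout M1 lay well above the other knockouts, which themselves were all above the controls. The log2 fold change was 1.11 ± 0.16 (SE; 95% interval 0.76 to 1.45; adjusted p = 0.000111, edgeR), a 2.15-fold rise. Without knockout M1 it was 0.99, still past the threshold.

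Gja4 (chromosome 4, 127311421 to 127314039, minus strand), the arterial endothelial connexin gene, rose by less. Knockout females F1, F2 and F3 had 178, 271 and 191 normalized counts, and knockout males M1, M2 and M3 had 363, 263 and 154. Control females F1 and F2 had 138 and 118, and control males M1 and M2 had 148 and 140. Knockout M3, the lowest of its group, was just above the highest control. The log2 fold change was 0.77 ± 0.21 (SE; 95% interval 0.33 to 1.22; adjusted p = 0.00796, edgeR), a 1.71-fold rise. In a fit of the male libraries alone it was 0.85 with an adjusted p of 0.101 (edgeR).

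Gjd3 (chromosome 11, 98982180 to 98983016, minus strand) was hardly read at all. There was 1 read among 39115308 over the knockout libraries, in F2, and 3 reads among 25903344 over the controls, in M2 and F1. The ratio of the 2 rates, 0.221, had an exact 95% counting interval of 0.00420 to 2.75, so no difference was detectable at this depth. The interval covers counting error only.

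Levels of different genes can be compared only per length, so counts were divided by exon length in kilobases. With all annotated exons merged, Gja4 averaged 140 ± 46.2 normalized counts per kilobase in knockouts, Gja1 89.9 ± 39.7, Gjc1 73.2 ± 17.9 and Gja5 15.8 ± 5.04 (SD, n = 6). In controls Gja1 averaged 372 ± 53.6, Gja5 322 ± 49.9, Gja4 80.6 ± 7.45 and Gjc1 33.3 ± 3.21 (SD, n = 4). The order in knockouts was thus Gja4, Gja1, Gjc1, Gja5, in which the first 3 overlapped between neighbours, while Gja5 lay below all. In controls, Gja1 and Gja5 overlapped, and both lay above Gja4 and that above Gjc1. With the longest transcript as length, Gja1 came first in both groups, at 237 ± 105 in knockouts (SD, n = 6) and 980 ± 141 in controls (SD, n = 4), so the order within knockouts depends on which length is used.

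The 5 genes together summed to 319 ± 70.1 normalized counts per kilobase of merged exon in knockouts (SD, n = 6) and 808 ± 66.8 in controls (SD, n = 4), 39.5% of the control level. By longest transcript this was 31.6%. Within that sum the make-up shifted. Gja5 held 4.91% ± 1.05 in knockouts (SD, n = 6) and 39.8% ± 4.94 in controls (SD, n = 4), without overlap. By longest transcript Gja5 held 4.83% in knockouts and 31.3% in controls. Gjc1 held 23.2% ± 4.30 in knockouts and 4.13% ± 0.21 in controls, and Gja4 held 43.8% ± 9.49 in knockouts and 10.0% ± 1.19 in controls. By longest transcript Gja4 held 28.1% in knockouts and 5.03% in controls. The share of Gja1 was 28.1% ± 10.7 in knockouts and 46.0% ± 5.54 in controls, and here the groups overlapped: knockout M3 reached 49.5%, while the other 5 knockouts held at most 25.7% and the lowest control 40.9%. By longest transcript Gja1 held 45.4% in knockouts and 60.6% in controls, again with overlap through knockout M3.

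**Figure D3:**
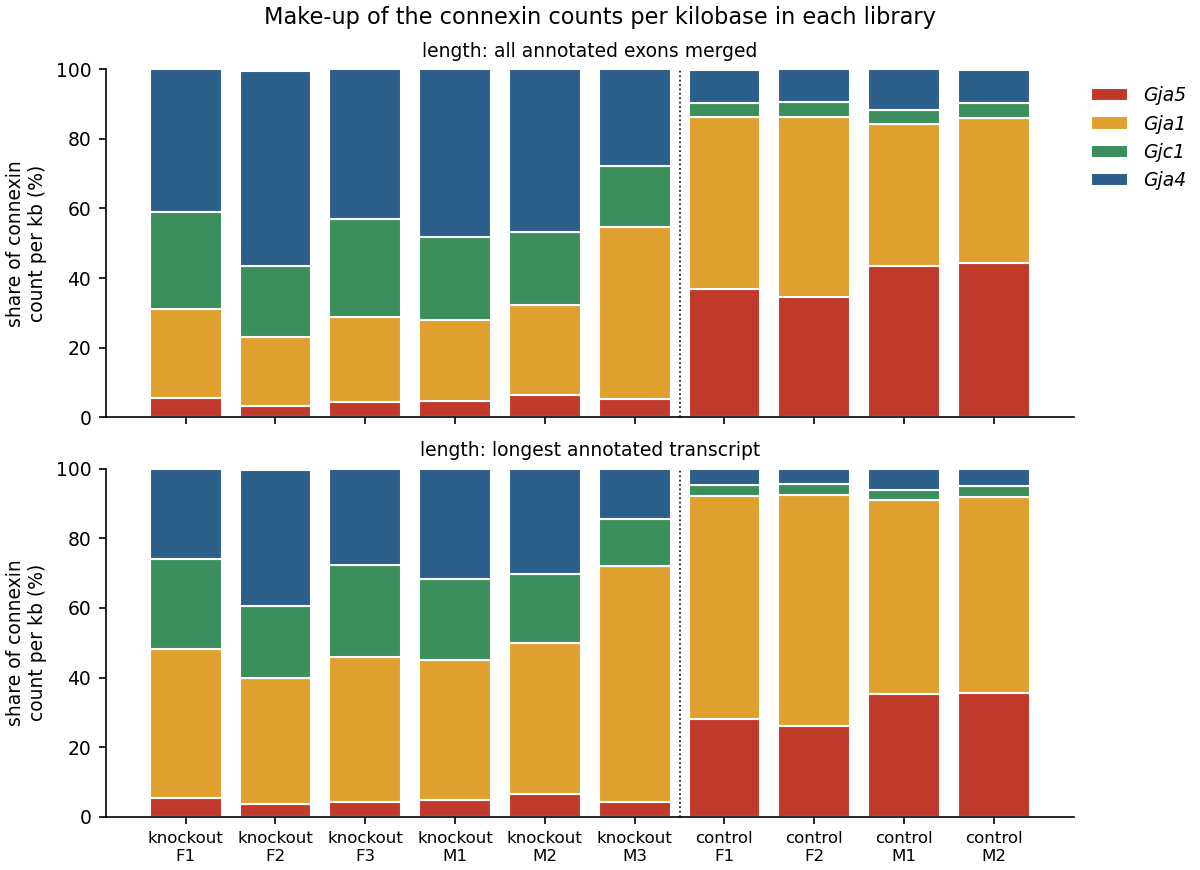
Share of the summed connexin counts per kilobase (vertical axis, percent) held by Gja5, Gja1, Gjc1 and Gja4 in each knockout (left) and control (right) library, with merged exons (top) or the longest transcript (bottom) as length. Gjd3, below 0.4% everywhere, is not drawn. Gja5 takes 3.34% to 6.46% in knockouts and 34.4% to 44.4% in controls with merged exons.

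The genotype effect was next read within each labelled sex. Gja5 was lower in both, with log2 fold changes of -4.66 ± 0.18 in females and -4.16 ± 0.17 in males (SE; adjusted p = 1.64e-08 and adjusted p = 6.92e-08, edgeR). In this fit 28.2% of all genes passed in females and 26.1% in males. Gja1 was lower by -2.74 ± 0.23 in females and by -1.52 ± 0.22 in males (SE; adjusted p = 6.49e-06 and adjusted p = 0.000537, edgeR). The difference of the 2 Gja1 effects, female minus male, was -1.23 ± 0.32 (SE; 95% interval -1.91 to -0.54), with an unadjusted p of 0.00203 and an adjusted p of 0.245 (edgeR), so it did not pass over all genes. At that threshold 0.205% of genes passed for this difference, and 7.15% had an unadjusted p below 0.05. The 3 knockout females lay below the 3 knockout males for Gja1, at 581 to 676 against 877 to 1673, while the 2 control females lay above the 2 control males. For Gja5 the sex difference in effect was -0.50 ± 0.25 (adjusted p = 0.715), for Gjc1 -0.29 ± 0.32 (adjusted p = 0.930) and for Gja4 -0.12 ± 0.41 (adjusted p = 0.980; SE, edgeR). Gjc1 was higher in females by 0.96 and in males by 1.25 on the log2 scale, both past the threshold, though the female call was lost without control F1 (adjusted p = 0.0632) or without control F2 (adjusted p = 0.0696, edgeR). Gja4 had 0.71 in females (adjusted p = 0.0885) and 0.83 in males (adjusted p = 0.0485, edgeR). The male call of Gja4 was lost under 9 alternatives, most of those run for the fit by sex. Among these 9 were the fits without control M1 (adjusted p = 0.185), without control M2 (adjusted p = 0.190) and without knockout M1 (0.54, adjusted p = 0.112, edgeR).

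Other connexin and pannexin genes of the mouse were a further list, of 16 symbols. In it 4 were tested, 2 fell, 1 rose and 1 did not pass, against 42.6% of all tested genes that differed, and 3 had no read in any library (Gja10, Gjb1 and Gjb6). The list's median log2 fold change was 0.14, and that of all tested genes was 0.00. Panx2, a pannexin gene best known from the nervous system, fell to a median of 4.87 normalized counts in knockouts (0.930 to 7.26), against a median of 30.3 in controls (23.7 to 35.6), a log2 fold change of -2.74 ± 0.32 (SE, adjusted p = 2.07e-05, edgeR). Panx1, whose protein forms ATP-releasing membrane channels, rose to 84.6 ± 23.9 in knockouts, against 38.5 ± 6.78 in controls (log2 fold change 1.09 ± 0.22, adjusted p = 0.00117). Pannexins share the membrane topology of connexins but form no gap junctions in most settings. Gja3, the lens connexin Cx46, had 71.0 ± 13.9 in knockouts and 108 ± 4.58 in controls (log2 fold change -0.63 ± 0.15, adjusted p = 0.00365). That call was lost with female libraries only (adjusted p = 0.05003) and with male libraries only (adjusted p = 0.0611, edgeR). Gjb5, which did not pass, had 37.1 ± 16.4 in knockouts and 19.1 ± 8.78 in controls (log2 fold change 0.91 ± 0.35, adjusted p = 0.0515; edgeR for each gene, SD over 6 knockouts and 4 controls).

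**Figure D4:**
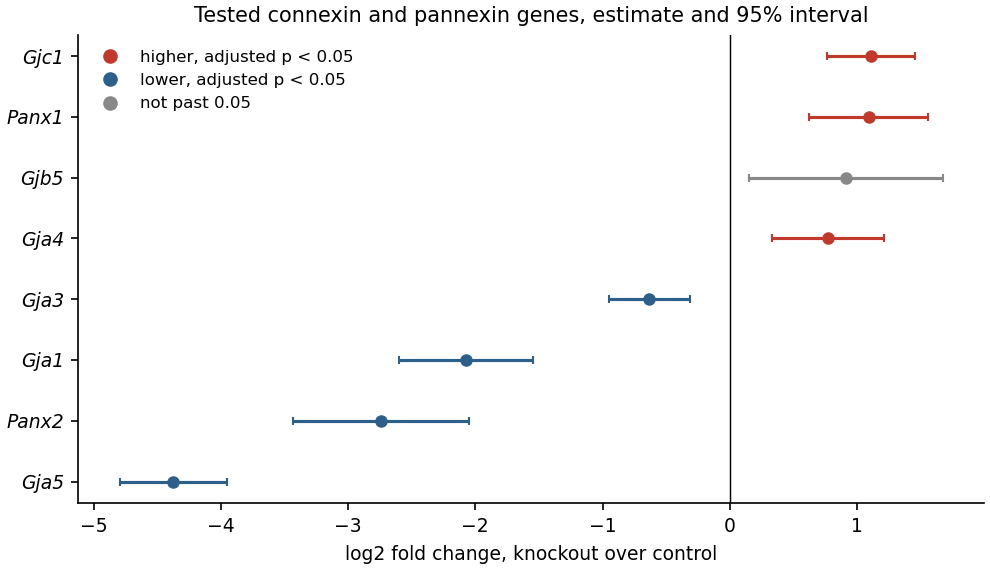
Log2 fold change, knockout over control, with its 95% interval (edgeR, not adjusted for the number of genes) for the 4 tested cardiac connexin genes and 4 other tested connexin and pannexin genes. Red marks higher and blue lower genes past an adjusted p of 0.05, and grey the rest. Gja5 lies furthest from 0 at -4.37, and Gjc1 and Panx1 lie highest at 1.11 and 1.09.

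Connexins sit at the intercalated disc beside adhesion and scaffold proteins, and a list of such partners divided. Of 22 tested genes 8 rose, 8 fell and 6 did not pass, with a median log2 fold change of 0.09. Over all tested genes 20.8% rose and 21.8% fell. The genes that fell included the cadherins of the desmosome. Dsc2 fell to 306 ± 61.8 normalized counts in knockouts, against 1785 ± 268 in controls (log2 fold change -2.57 ± 0.15), and Dsg2 to 567 ± 114 in knockouts, against 1092 ± 51.3 in controls (-0.97 ± 0.13). Dsp, the desmosomal plaque gene desmoplakin, fell to 2735 ± 650 in knockouts, against 7656 ± 925 in controls. Ctnna3, an adhesion plaque catenin, had 382 ± 64.9 in knockouts and 840 ± 172 in controls, and the membrane scaffold gene Ank2 851 ± 107 in knockouts and 1473 ± 123 in controls, both past the threshold. Pkp2, a plakophilin of the desmosome, rose to 1567 ± 91.3 in knockouts, against 807 ± 86.4 in controls (log2 fold change 0.93 ± 0.09). These 6 genes were named for having the smallest adjusted p of the list (SD, n = 6 knockouts and 4 controls).

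Transcription regulators that mouse work links to connexin genes formed another list. Of 14 tested genes, Tbx5 among them, 4 rose, 4 fell and 6 did not pass, with a median log2 fold change of 0.24. The split was 6 higher and 2 lower when libraries were scaled by size alone, and 42.6% of all tested genes differed. Nkx2-5, a homeobox factor that works with Tbx5 on Gja5 in mouse, fell to 214 ± 29.9 normalized counts in knockouts, against 288 ± 39.6 in controls (log2 fold change -0.46 ± 0.12, adjusted p = 0.00667), with overlapping groups. Its call was lost with scaling by library size alone (-0.31, adjusted p = 0.0576) and with male libraries only (-0.30, adjusted p = 0.320; edgeR). Hopx, a homeodomain cofactor of the conduction system, fell to 359 ± 119 in knockouts, against 1585 ± 220 in controls (log2 fold change -2.17 ± 0.21). Hey1, a Notch target, fell to 56.2 ± 13.8 in knockouts, against 112 ± 17.2 in controls. Id2, an inhibitor of helix-loop-helix factors, rose to 316 ± 50.7 in knockouts, against 161 ± 33.7 in controls. Jun, a subunit of AP-1, rose to 643 ± 255 in knockouts, against 291 ± 99.8 in controls, with overlapping groups (log2 fold change 1.12 ± 0.28, adjusted p = 0.00553). SDs are over 6 knockouts and 4 controls, and Tbx5 had an adjusted p of 4.78e-05.

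**Figure D5:**
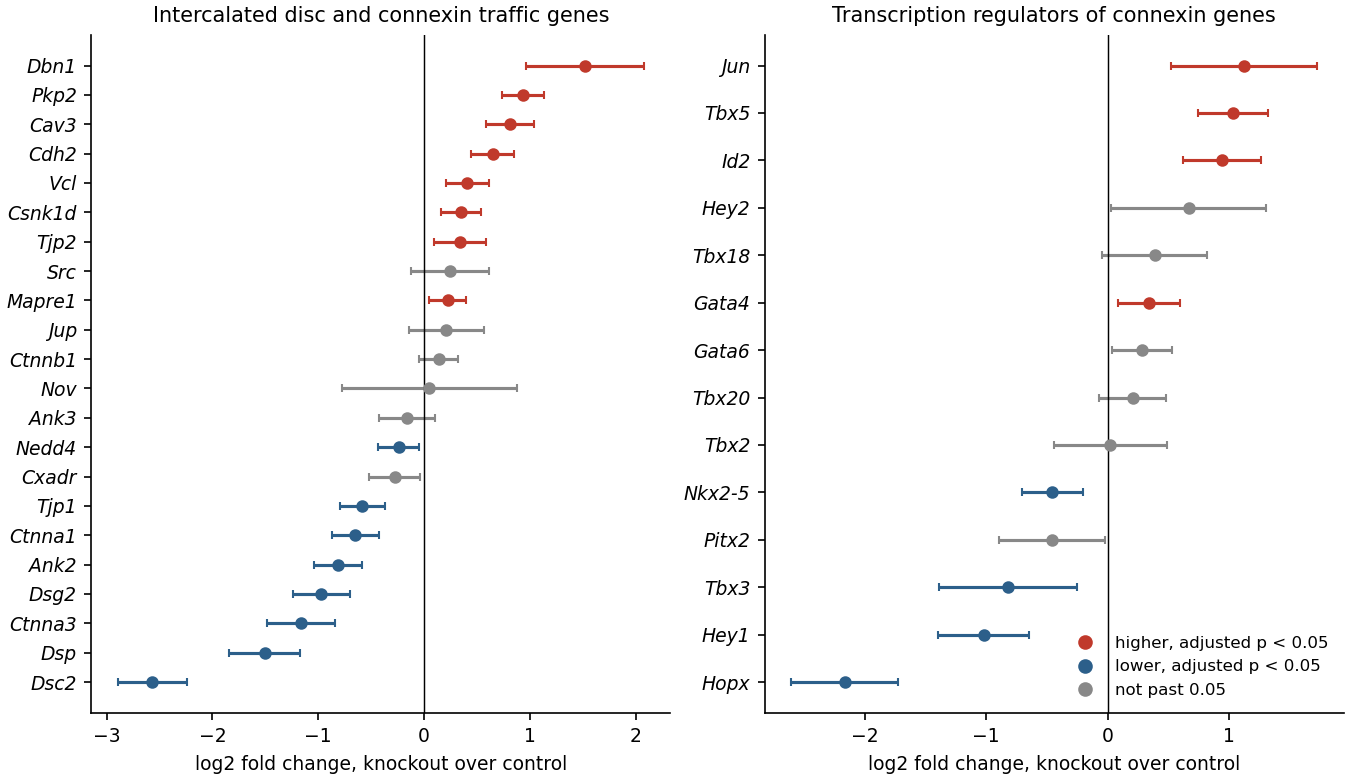
Log2 fold change, knockout over control, with its 95% interval (edgeR, not adjusted for the number of genes) for 22 intercalated disc and connexin traffic genes (left) and 14 transcription regulators (right), red and blue marking genes past an adjusted p of 0.05. Dsc2 lies lowest among the disc genes at -2.57, and Hopx lowest among the regulators at -2.17.

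Markers of the cell types that use these connexins were measured beside them, and their part in the connexin differences was not tested. Among 13 cardiomyocyte markers 5 rose, 1 fell and 7 did not pass, with a median log2 fold change of 0.13, a share near the 42.6% of all tested genes. Mybpc3 and Tnnc1, genes of the thick and thin filament, rose by 1.26 and 0.96 on the log2 scale. The summed level of the list ran from 374064 to 485010 normalized counts in knockouts and from 382384 to 438098 in controls, with overlap. Myh6, a myosin heavy chain gene, was the most abundant of the list. It fell to 138013 ± 19791 in knockouts (SD, n = 6), against 175000 ± 8133 in controls (SD, n = 4), without overlap. Of 9 pacemaker and conduction markers 5 were tested and only Cacna1d, a pacemaker calcium channel gene, passed, with a log2 fold change of -0.74, and its call was lost with male libraries only (adjusted p = 0.0787, edgeR). The defining genes Hcn4 and Cntn2 had 70 and 73 reads over all 10 libraries, and Isl1 had 0.

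Beside Gja4, 12 vascular endothelial markers showed 3 rises, 2 falls and 7 that did not pass, with a median log2 fold change of 0.10. This, the pacemaker count above and the counts below stand against 42.6% of all tested genes that differed. Of all tested genes 20.8% were higher and 21.8% lower. The summed level of the vascular endothelial markers was 11531 to 13407 in knockouts and 10681 to 12342 in controls, overlapping. Emcn and Tie1, both endothelial membrane genes, rose by 0.95 and 0.28 on the log2 scale, while the endothelial receptor genes Kdr and Flt1 had log2 fold changes of -0.49 and -0.27, also past the threshold. The call of Tie1 was lost with female libraries only (adjusted p = 0.0675) and with male libraries only (adjusted p = 0.195, edgeR). Of 11 tested arterial endothelial markers 5 rose, 1 fell and 5 did not pass (median 0.08). Their sum ran from 5346 to 7771 in knockouts and from 3630 to 4839 in controls, without overlap. Most of that sum was Nrp1, at 4692 ± 751 in knockouts and 2902 ± 405 in controls (SD, n = 6 and 4). Unc5b, a netrin receptor gene of arterial endothelium, rose by 1.59 and Jag1, a Notch ligand gene, by 0.71. Hey1 was the 1 that fell, with a log2 fold change of -1.02. Lists of the other cell types of the atrial wall were measured in the same way. Endocardial markers showed 2 rises and 2 falls among 6 tested, with sums of 11512 to 14419 in knockouts and 9072 to 10336 in controls. In that sum Vwf had 8625 ± 940 in knockouts and 4277 ± 772 in controls, while Npr3 and Cytl1 fell (log2 fold changes -0.59 and -1.31). Among 11 smooth muscle and pericyte markers 7 rose and none fell, with sums of 15942 to 19789 in knockouts and 9751 to 10661 in controls. Most of that sum was Des, which heart muscle also expresses, at 12293 ± 1163 in knockouts and 6411 ± 619 in controls (SD, n = 6 and 4). Myh11, Rgs5 and Kcnj8 of the same list had log2 fold changes of -0.42, -0.34 and -0.60 and did not pass. Fibroblast markers rose in 9 and fell in 2 of 12 cases (64937 to 81616 in knockouts, 48919 to 53265 in controls). The 2 that fell were Pdgfra and Gsn, with log2 fold changes of -0.54 and -0.61. Gsn was the most abundant of the list, at 16964 ± 4460 in knockouts and 25594 ± 2287 in controls (SD, n = 6 and 4). Macrophage markers rose in all 11 (8944 to 13561 in knockouts, 4139 to 5694 in controls). Of 8 epicardial markers 1 rose, with overlapping sums of 2909 to 4471 in knockouts and 2911 to 3736 in controls.

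Genes whose pattern over the 10 libraries lay nearest to that of each connexin were taken by the root mean square difference of log2 levels, each relative to its control mean, among 9996 genes. They are a description and were picked for that likeness. Nearest to Gja5 were Myl7 at 0.44, Cilp2 at 0.46, Sbk2 at 0.52, Cmya5 at 0.57 and Ifltd1 at 0.66. Myl7, the atrial regulatory light chain gene, had 3793 ± 1010 normalized counts in knockouts (SD, n = 6) and 61119 ± 9804 in controls (SD, n = 4). Gja1 was matched most nearly by Rabgap1l and Slc7a7, both at 0.29, then Arfgef1 at 0.30, Chrna10 at 0.31 and Asb14 at 0.32. For Gjc1 these were Smoc1 at 0.11, Raph1 at 0.16, Fam78a at 0.18, Sdc3 at 0.18 and Hspb6 at 0.19. Gja4 had Farp1 at 0.10, Kirrel at 0.12, Mical2 at 0.14, Plxnb2 at 0.15 and C1qtnf2 at 0.15.

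In the authors' deposited table, the log2 fold changes of knockout over control were -4.16 for Gja5, -1.92 for Gja1, 1.10 for Gjc1 and 0.76 for Gja4. The authors' deposited table gave adjusted p-values of 1.87e-99, 4.17e-15, 1.08e-09 and 0.00121 for these 4 genes and none for Gjd3.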

How the data were processed

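Left atrial RNA was depleted of globin and read from 1 end over 51 bases, per the labels' protocols, which name both an mRNA kit and ribosomal-depleted total RNA. FastQC, TopHat2 2.0.11, featureCounts, DESeq2 and mm10 are named in the submitters' processing notes; neither the annotation nor the strand setting is given in the sources used here. The authors deposited raw counts per gene, per the file headers. Normalized counts are a signal that the authors deposited: each equals its raw count over a size factor of the library. The log2 fold change, its standard error with the test score, the linear fold ratio, and the p-value and adjusted p-value were deposited by the authors.

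Raw counts were tested with edgeR 4.0.16 in R 4.3.3 (filterByExpr, TMM, quasi-likelihood F-test, Benjamini-Hochberg at 0.05 over 13191 genes, no covariate). The SE is the log2 fold change over the square root of F. Sex effects came from 1 fit with a mean per sex and group. Permutation tests used SciPy 1.17.1. Exon lengths and positions came from GENCODE M21, promoters from RefSeq on GRCm38.p6. Test functions were tested on simulated data. Within groups, no pair of libraries agreed within sampling noise (lowest chi-square per degree of freedom 4.22). At 5701670 to 7697556 reads per library, genes with few reads have large counting errors. Each library has its own animal code in the labels, which give no batch.

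The members and lists were chosen with earlier results of these data known, and some genes of the list of other connexins are not reported here. Named genes are the members, Tbx5, tested genes of the other connexin list, up to 6 partners and regulators and up to 2 passing cell type markers by adjusted p, and for each member the 5 genes with the nearest pattern (log2 of TMM CPM + 1, mean of 50 or more normalized counts in 1 of the groups, no predicted genes). Other genes mentioned, such as Myh6, Kdr, Vwf, Des, Nrp1 and Gsn, are outside this rule and are not counted among the named genes below. Alternatives were other scalings, DESeq2 1.42.0, limma-voom 3.58.1, other filters, sex or a replicate block as covariates, single sexes, and each library left out.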

Additional observations from a re-analysis of the deposited data

Results flagged for a closer look

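Among 96 groups of values examined, 9 held a library whose gap to its nearest neighbour was large for the range of its group, where chance alone gives about 1 in 20. Knockout M1 stood apart in 4 genes, with 534 normalized counts of Gjc1, 272 of Nkx2-5, 98.5 of Cacna1d and 1125 of Tie1, the highest of the 6 knockouts in each. Knockout M3 was the highest knockout by a wide gap in 3 genes picked for a pattern near that of Gja5 or Gja1, with 5719 normalized counts of Myl7, 724 of Rabgap1l and 826 of Arfgef1. Rabgap1l and Arfgef1 were chosen for likeness to Gja1, in which knockout M3 is also the highest knockout, so the chance rate above does not hold for genes chosen by pattern. Among controls, F1 had 2184 of Dsc2 and F2 had 365 of Ifltd1, both the highest of the 4.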

How the results depend on the processing

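Gja5, Gja1 and Gjc1 kept their direction and stayed past the threshold under all 22 alternatives, with log2 fold changes of -4.66 to -4.15, -2.74 to -1.50 and 0.96 to 1.27. Gja4 ran from 0.63 to 0.92 and missed the threshold with male libraries only (0.85, adjusted p = 0.101). No alternative gave Gjd3 enough reads to be read as a change. Over all genes, 5622 passed, against 2061 with male libraries only and 1533 with an absolute log2 fold change above 1. Scaling to library size only moved the median of all genes to 0.14 and the split to 3942 higher and 2020 lower, against 2741 and 2881. Among partners 16 passed, against 9 with male libraries only. Gjb5 passed under 12 alternatives. Over the 42 named genes other than the members and Tbx5, 898 of 922 values kept direction and call, 12 lost the call and 12 gained it. By longest transcript, Gja1 held 45.4% in knockouts and 60.6% in controls, Gja4 28.1% in knockouts and 5.03% in controls, Gja5 31.3% in controls and Gjc1 3.03% in controls. Leaving out single libraries gave sex differences of effect for Gja4 from -0.38 to 0.18, none past the threshold; the cause was not tested.

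Deviations of same-numbered animals from their group means had correlations of -0.13, -0.04, -0.02 and 0.19. Other pairs were not compared, so whether same-numbered animals shared more than a number was not tested. With the replicate block 5411 genes passed, and Gja5 was -4.35, Gja1 -2.31, Gjc1 1.13 and Gja4 0.92. Knockouts F3 and M3 have no same-numbered control, so these effects rest on the 4 same-numbered pairs. The Gja5 to Gja1 ratio differed by -2.06 over the 4 pairs (exact sign-flip p = 0.125, the smallest 4 pairs can give). A fit without knockout M3 and control F1 was chosen after the data were seen and changed no call of the 4 members. Depth limits Gjd3 and the other connexin genes with fewer than 50 reads.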
